A study of Mus musculus with 11 samples.

Results

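The genes described here mark T cells, natural killer (NK) and cytotoxic cells, B and plasma cells, and mast cells, and were followed in whole mouse pancreas in a caerulein model of acute pancreatitis. They came from a list of 38 symbols, and a gene counted as measured where the array annotation held a probe set with its symbol and no other. This held for 36 of the 38, out of 19938 named genes in all. Lck and Tcf7 were not analysed here. Each of the 36 genes had a single such probe set. By lineage, 11 of 13 T cell markers, 5 of 5 NK and cytotoxic markers, 12 of 12 B and plasma cell markers and 8 of 8 mast cell markers were measured.

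All mice were wild-type C57Bl6J. The treated group received 9 intraperitoneal injections of caerulein 1 hour apart, at a stated 50 mg/kg, and the control group received sodium chloride (NaCl). Caerulein is a peptide related to cholecystokinin that drives acinar cells into excess secretion. There were 6 caerulein arrays and 5 NaCl arrays, although the series text counts 4 control mice. The sources used here give neither age nor sex, nor the interval from the last injection to tissue collection. No label ties an array to a mouse of its own, and p-values below therefore measure the spread between these samples. Whole pancreas was ground, so every value pools acinar, duct, islet, stromal and immune cells, and fewer cells of a type cannot be told apart from less RNA per cell. Arrays of the same group correlated at 0.981 to 0.991, and arrays of different groups at 0.938 to 0.955. Of the acinar genes that define the tissue, the elastase gene Cela1 stood in NaCl at a log2 level of 14.33 ± 0.02 (SD, n = 5) and in caerulein at 14.26 ± 0.03 (SD, n = 6).

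T cells recognise antigen through a receptor whose signal is carried by the CD3 chains and passed on by the CD4 or CD8 co-receptors, LCK and LAT. B cells signal through the CD79A and CD79B chains of their own receptor, and plasma cells secrete antibody joined by the J chain. NK cells and cytotoxic T cells kill with perforin and granzymes. Mast cells are long-lived tissue cells that carry the IgE receptor and store tryptase, chymase and carboxypeptidase in their granules. In a resting pancreas all of these are a small minority beside acinar cells, and early caerulein pancreatitis is known mainly for neutrophils and macrophages.

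In caerulein pancreas many of these markers were called lower and none was called higher. Among the 36 genes, 18 were lower, 0 were higher and 18 did not pass (limma, adjusted p under 0.05). Over all named genes 34.3% were lower and 20.3% were higher. The median log2 difference, caerulein minus NaCl, was -0.22 over the 36 genes and -0.13 over all named genes. All differences were small, from -0.66 for Jchain, which did not pass, to 0.04 for Cd3d. The largest that passed was that of Prf1 at -0.41, a 1.33-fold difference. In 5 of the 36 genes every caerulein array lay below every NaCl array, a pattern that 20.6% of all named genes showed. No marker had all caerulein arrays above all NaCl arrays, which 16.7% of named genes did. When each array was centred on genes of similar level, 1 of the 36 stayed lower, Cd8a, and 0 were higher (backgrounds 19.6% and 20.8%).

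**Figure D1:**
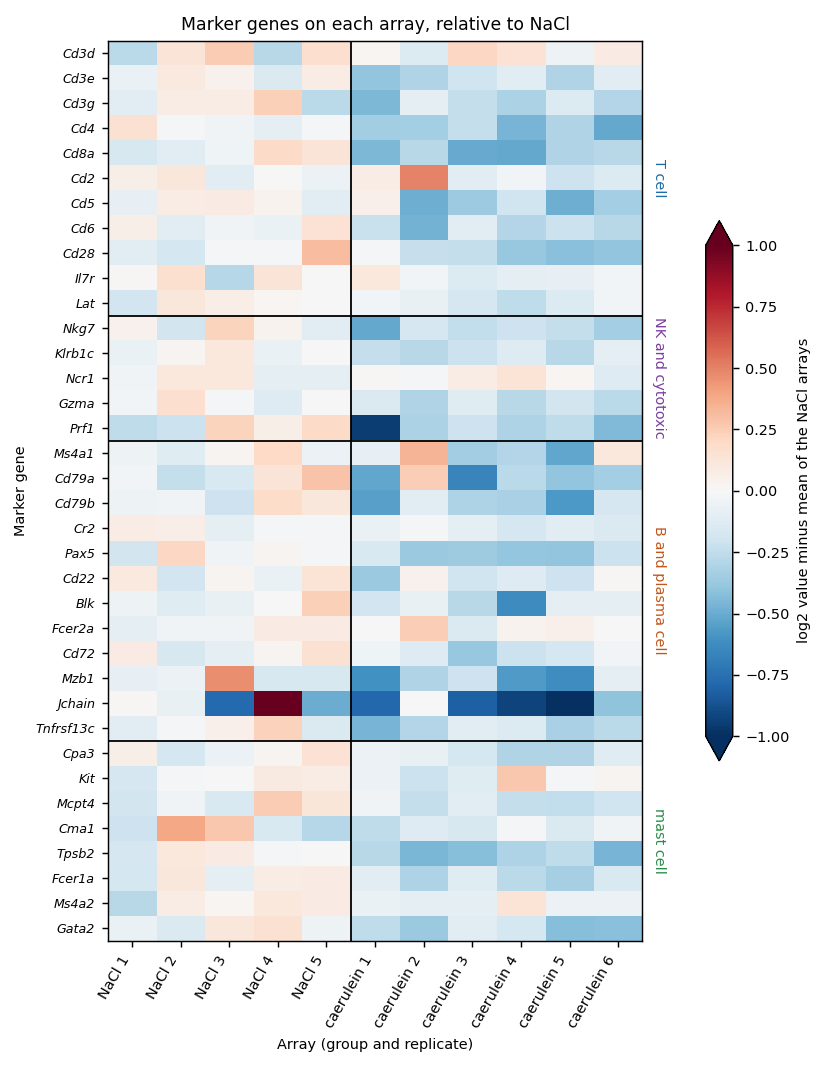
Log2 value of each of the 36 marker genes (rows, by lineage) on each of the 11 arrays (columns), minus the mean of the 5 NaCl arrays for that gene; blue is lower and red is higher, and the scale ends at 1 in either direction. The blue of the caerulein columns is widespread but pale, Jchain is uneven within both groups, and caerulein replicate 2 is red for Cd2, Ms4a1, Cd79a and Fcer2a.

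Of the 11 T cell markers, 7 were lower, against 34.3% of all named genes, and 4 did not pass, with a median of -0.26. The co-receptor gene of helper T cells, Cd4, read 5.67, 5.49, 5.48, 5.42 and 5.50 on the NaCl arrays and 5.00 to 5.28 with a median of 5.17 in caerulein. The groups did not overlap, and the difference was -0.37 (SE 0.07, limma adjusted p = 0.000981), or 1.29-fold. Cd8a, the co-receptor gene of cytotoxic T cells, read 5.93, 5.98, 6.05, 6.29 and 6.23 in NaCl and 5.58 to 5.82 with a median of 5.72 in caerulein. These groups were also fully separate (difference -0.39, SE 0.08, limma adjusted p = 0.00253). After centring on genes of similar level Cd8a kept a difference of -0.25 (limma adjusted p = 0.0355), whereas that of Cd4 was -0.18 (limma adjusted p = 0.0675).

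The 3 CD3 chains, which assemble into the same receptor, did not give the same result. Cd3e read 5.75, 5.91, 5.86, 5.67 and 5.89 in NaCl against 5.43 to 5.71 with a median of 5.57 in caerulein. The ranges overlapped by a little, with 4 of 6 caerulein arrays below the lowest NaCl array (difference -0.23, SE 0.07, limma adjusted p = 0.0216). Cd3g had a difference of -0.26 (limma adjusted p = 0.0453). For Cd3d the NaCl mean was 3.83 ± 0.25 (SD, n = 5) and the caerulein mean 3.87 ± 0.13 (SD, n = 6), which differ by 0.04, with a 95% interval of -0.20 to 0.28. A test of the chains against each other was not made.

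Among the surface receptors of T cells, Cd5, Cd6 and the co-stimulatory receptor gene Cd28 were lower, at -0.31, -0.26 and -0.28. Cd6 was the third T cell gene with no overlap between groups. Cd2, an adhesion receptor that NK cells also carry, had the largest p of the list. It read 5.21, 5.26, 5.04, 5.16 and 5.09 in NaCl and 4.95 to 5.65 with a median of 5.08 in caerulein. The array at 5.65 was caerulein replicate 2, and without it the difference of 0.01 became -0.08. Neither the interleukin-7 receptor gene Il7r (-0.04, 95% interval -0.23 to 0.14) nor the adaptor gene Lat (-0.11, 95% interval -0.27 to 0.04) passed.

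The T cell count was 4 of 11 without NaCl replicate 3. Cd4, Cd8a and Cd6 passed whichever array was left out, Cd5 was lost without NaCl replicate 3, and Cd3e without NaCl replicate 2 or NaCl replicate 5. Cd3g was lost without NaCl replicate 2, 3 or 4 or caerulein replicate 1, 3, 4 or 6, and Cd28 without NaCl replicate 3, 4 or 5 or caerulein replicate 4, 5 or 6.

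In the NK and cytotoxic list 4 of 5 genes were lower, against 34.3% of all named genes, and 1 did not pass. The median of the list was -0.22. The promoters of these 5 genes share a short motif and are shown for the 2 members with the smallest p. Of the 36 genes, 27 had at least 1 promoter in a RefSeq table (GRCm38.p6), 4 of them more than 1. The 250 bases before each annotated start were searched on both strands for 10 motifs. These were AGATAA of GATA factors, the EBF1 motif, the octamer ATGCAAAT, CAGGTG of E proteins, CTTTGA of TCF factors, TGTGGT of RUNX factors, GGGGAA of NF-kB type, and for ETS type factors AGGAAG as well as the forms TTCCTG and also ACTTCC, which can overlap one another. Each occurred in 0.779% to 29.5% of all promoters. A listed gene was counted if any of its promoters held the motif, whereas the shares of all promoters count each promoter. The motifs TGTGGT of RUNX and AGATAA of GATA factors were chosen for display after the counts had been seen. TGTGGT occurred in 5 of 5 NK and cytotoxic genes, in 0 of 7 T cell, 2 of 8 B and plasma cell and 3 of 7 mast cell genes, and in 14.0% of all 32851 promoters. In the promoters of Nkg7 (chr7:43436888-43437137, plus strand) and Klrb1c (chr6:128788642-128788891, minus strand), written 5′ to 3′ along the gene, capitals mark the motif, read from the opposite strand in Nkg7. It starts 83 bases before the annotated start in Nkg7 and 89 bases in Klrb1c.
Nkg7: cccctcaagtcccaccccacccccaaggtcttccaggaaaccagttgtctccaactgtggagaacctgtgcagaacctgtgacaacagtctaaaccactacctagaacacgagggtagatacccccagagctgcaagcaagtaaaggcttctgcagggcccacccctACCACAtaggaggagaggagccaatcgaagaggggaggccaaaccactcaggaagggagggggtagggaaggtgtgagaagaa
Klrb1c: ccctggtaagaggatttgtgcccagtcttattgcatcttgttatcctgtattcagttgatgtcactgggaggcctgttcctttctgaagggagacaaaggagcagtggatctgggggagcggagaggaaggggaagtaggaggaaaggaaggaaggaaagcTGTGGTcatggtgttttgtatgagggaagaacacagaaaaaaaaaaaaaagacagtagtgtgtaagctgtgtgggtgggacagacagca

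Nkg7, a granule membrane protein gene of killer cells, read 5.41, 5.18, 5.58, 5.39 and 5.25 in NaCl. In caerulein it lay between 4.85 and 5.19 with a median of 5.12, and 5 of 6 arrays were below the lowest NaCl array (difference -0.28, SE 0.09, limma adjusted p = 0.0178). Klrb1c, which encodes the NK1.1 antigen, read 3.23, 3.33, 3.41, 3.23 and 3.30 in NaCl and 3.03 to 3.21 with a median of 3.07 in caerulein. The groups were separate but by a narrow margin (difference -0.20, SE 0.06, limma adjusted p = 0.0179). The granzyme gene Gzma was lower at -0.22 (limma adjusted p = 0.0206). Prf1, the gene of perforin, was lower at -0.41 (limma adjusted p = 0.0287), with caerulein replicate 1 far below the others at 5.23, and the call was lost without NaCl replicate 3, NaCl replicate 4 or NaCl replicate 5. Ncr1, the NKp46 receptor gene that is most restricted to NK cells, read 3.71, 3.85, 3.85, 3.66 and 3.65 in NaCl and 3.61 to 3.88 with a median of 3.76 in caerulein. Its ranges overlapped fully (difference 0.02, 95% interval -0.13 to 0.16, limma adjusted p = 0.868). Centred on genes of similar level, 0 of these 5 passed, while of all named genes 19.6% were then lower and 20.8% higher.

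Of the 12 B and plasma cell markers, 4 were lower, 0 were higher and 8 did not pass, with a median of -0.25. That share of lower genes was near the 34.3% of all named genes. Pax5, the factor that fixes B cell identity, read 5.05, 5.44, 5.20, 5.26 and 5.22 in NaCl. The caerulein arrays ran from 4.84 to 5.09 with a median of 4.87, and all but replicate 1 lay below the NaCl range (difference -0.31, SE 0.08, limma adjusted p = 0.00623). For Cd79b, a signalling chain of the B cell receptor, the NaCl arrays read 5.55, 5.57, 5.39, 5.78 and 5.71 and the caerulein arrays 5.03 to 5.50 with a median of 5.29. That overlap came from replicates 2 and 6 (difference -0.34, SE 0.10, limma adjusted p = 0.0171). Tnfrsf13c, the receptor gene for the survival factor BAFF, was lower at -0.27 (limma adjusted p = 0.0247), a call lost without NaCl replicate 3 or NaCl replicate 4.

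Cd79a, the partner chain of Cd79b, had a similar difference with a wider spread. It read 5.66, 5.44, 5.53, 5.81 and 5.97 in NaCl and 5.02 to 5.93 with a median of 5.32 in caerulein. Caerulein replicate 2 alone stood inside the NaCl range, and the difference of -0.32 did not pass (SE 0.15, limma adjusted p = 0.0955). The largest p of the list was that of Fcer2a, the low-affinity IgE receptor gene, which read 3.56, 3.62, 3.62, 3.74 and 3.74 in NaCl and 3.51 to 3.90 with a median of 3.67 in caerulein. Those ranges overlapped, with replicate 2 again the highest (difference 0.03, 95% interval -0.13 to 0.19). Ms4a1 (CD20), Cr2 (complement receptor 2), Cd22, Blk and Cd72 had differences of -0.23 to -0.10 that did not pass.

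Mzb1 and Jchain are genes of antibody-secreting cells. Mzb1, an endoplasmic reticulum protein gene of plasma cells, was lower at -0.40 (limma adjusted p = 0.0295), with NaCl replicate 3 high at 5.46, and the call was lost without that array or without caerulein replicate 1, caerulein replicate 4 or caerulein replicate 5. Jchain read 4.70, 4.62, 3.91, 6.02 and 4.19 in NaCl and 3.65 to 4.70 with a median of 3.89 in caerulein. NaCl replicate 4 was the high array, and the difference of -0.66 did not pass (SE 0.32, limma adjusted p = 0.111). Jchain was chosen for display after its values had been seen. Without caerulein replicate 2 the number of lower B and plasma cell markers was 5 of 12. Centred on genes of similar level it was 0, against 19.6% of all named genes. The E protein motif CAGGTG occurred in 5 of 8 B and plasma cell genes with a promoter and in 0 of 7 mast cell genes. Counted per promoter, it occurred in 17.2% of all promoters. This motif was singled out after the counts had been seen.

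Mast cell markers had 3 of 8 genes lower, 0 higher and 5 that did not pass, with a median of -0.18. Their share of lower genes was also near the 34.3% of all named genes. Gata2, a GATA factor on which mast cells depend, belongs to the list, and the GATA motif AGATAA occurred in 3 of 7 mast cell genes with a promoter (Cpa3, Fcer1a and Ms4a2), in 1 of 7 T cell, 0 of 5 NK and cytotoxic and 0 of 8 B and plasma cell genes, and in 9.99% of all promoters. The 2 with the smallest p are shown, Fcer1a (chr1:173227230-173227479, minus strand) and Cpa3 (chr3:20242182-20242431, minus strand), with the motif in capitals. In Fcer1a it is read from the opposite strand and starts 92 bases before the annotated start, and in Cpa3 it starts 46 bases before it.
Fcer1a: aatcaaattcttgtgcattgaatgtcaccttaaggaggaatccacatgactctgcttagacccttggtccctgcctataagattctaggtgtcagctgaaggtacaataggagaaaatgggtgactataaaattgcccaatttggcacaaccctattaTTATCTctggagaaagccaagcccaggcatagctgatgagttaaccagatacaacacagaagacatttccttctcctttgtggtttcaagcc
Cpa3: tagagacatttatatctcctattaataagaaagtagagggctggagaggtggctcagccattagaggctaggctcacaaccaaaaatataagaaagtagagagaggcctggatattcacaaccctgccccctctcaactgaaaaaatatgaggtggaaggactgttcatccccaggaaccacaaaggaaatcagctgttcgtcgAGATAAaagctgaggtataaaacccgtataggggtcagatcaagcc

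Tpsb2, a mast cell tryptase gene, showed the clearest difference of the list. It read 5.39, 5.66, 5.63, 5.54 and 5.55 in NaCl and 5.09 to 5.30 with a median of 5.19 in caerulein. No array overlapped (difference -0.36, SE 0.07, limma adjusted p = 0.00119), although after centring on genes of similar level it was -0.18 (limma adjusted p = 0.0660). Its close relative Tpsab1, whose transcripts the probes may not separate, was lower at -0.28. Gata2 read 5.91, 5.83, 6.09, 6.13 and 5.92 in NaCl and 5.55 to 5.86 with a median of 5.66 in caerulein. A single caerulein array reached the NaCl range (difference -0.29, SE 0.08, limma adjusted p = 0.0116). Blood vessel cells also express Gata2. Of 7 endothelial genes 2 were higher, led by Pecam1 (0.39), and 1 was lower, Vwf (-0.33). Over all named genes the shares were 20.3% higher and 34.3% lower. The endothelial list had mean log2 levels of 5.95 to 6.07 in NaCl and 6.00 to 6.15 in caerulein. The part of blood vessel cells in the result was not tested.

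The IgE receptor genes were Fcer1a, lower at -0.22 (limma adjusted p = 0.0332), and Ms4a2, which at -0.04 did not pass. The call of Fcer1a was lost without NaCl replicate 2, 4 or 5 or caerulein replicate 2, 4 or 5. Cpa3, the mast cell carboxypeptidase gene, read 4.21, 3.97, 4.09, 4.18 and 4.30 in NaCl and 3.84 to 4.09 with a median of 4.00 in caerulein. These ranges overlapped, and the difference of -0.17 did not pass (SE 0.08, limma adjusted p = 0.0839). The chymase genes Mcpt4 (-0.18) and Cma1 (-0.12) did not pass either, and both have near relatives that their probes may not separate. Kit, the receptor for stem cell factor, read 6.38, 6.54, 6.55, 6.64 and 6.62 in NaCl and 6.33 to 6.81 with a median of 6.51 in caerulein. It was the least changed gene of the list (difference -0.02, 95% interval -0.21 to 0.17, limma adjusted p = 0.875). Kit is also found on cells other than mast cells.

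**Figure D2:**
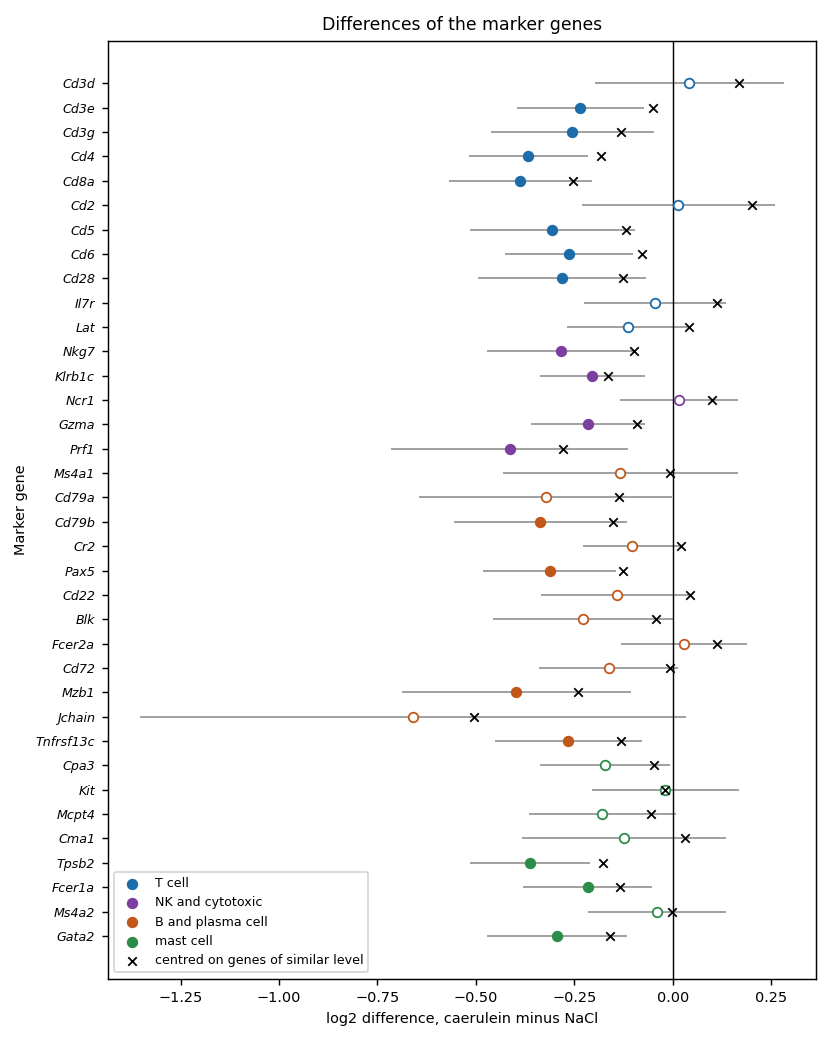
Log2 difference, caerulein minus NaCl, for each of the 36 marker genes. Circles are the deposited values with their 95% intervals (filled where the limma adjusted p is under 0.05, coloured by lineage), and crosses are the differences after each array was centred on genes of similar level. The 18 filled circles lie between -0.41 and -0.20, and each of the 36 crosses lies to the right of its circle.

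The markers are dim genes on these arrays, with mean log2 levels of 3.19 to 6.54, and the difference between groups depended on level. Among the 15824 named genes with a mean level from 3 to 7, 37.2% were lower and 12.7% were higher, with a median of -0.16. Between levels 3 and 4, 2 of 7 markers were lower, against 16.2% of the named genes there. From 4 to 5 it was 4 of 13 against 38.5%, from 5 to 6 it was 11 of 14 against 49.0%, and from 6 to 7 it was 1 of 2 against 35.6%. In the 5 to 6 range the marker median was -0.31 and that of all named genes -0.23. In the 4 to 5 range it was -0.17 against -0.19. With each array centred within 10 level classes, the medians were -0.08 for T cell, -0.10 for NK and cytotoxic, -0.08 for B and plasma cell and -0.05 for mast cell markers, against -0.03 for all named genes. Of the 36 genes 27 then had a negative difference, compared with 32 as deposited.

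**Figure D3:**
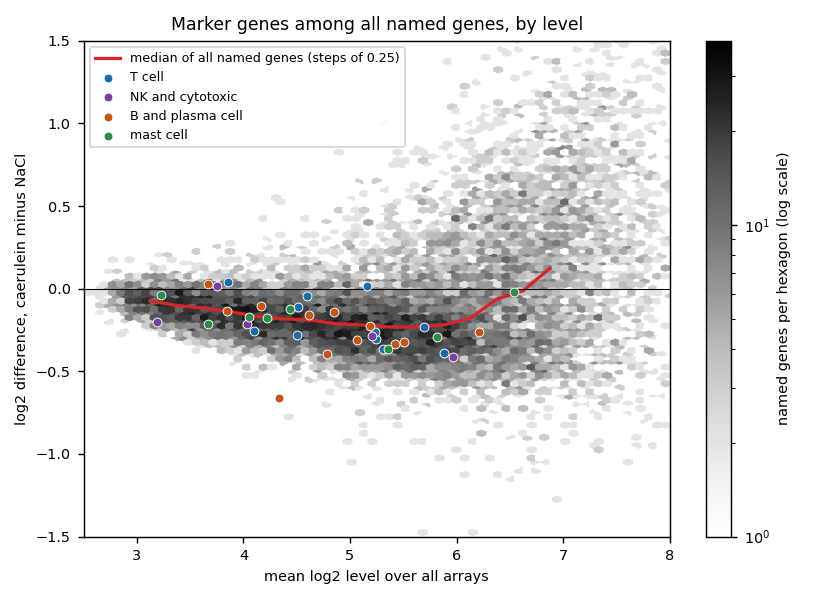
Log2 difference, caerulein minus NaCl (vertical), against mean log2 level over the 11 arrays (horizontal), for all named genes of level 2.5 to 8 within the plotted range (grey hexagons, shaded by count on a log scale) and for the 36 markers (coloured by lineage). The red line is the median of all named genes in steps of 0.25; it dips below 0 over the levels where the markers sit, and most markers lie close to it, with Jchain the farthest below.

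Other genes of the same cells were counted from longer lists, to be read against 34.3% lower and 20.3% higher over all named genes. Of 23 further T cell genes 13 were lower and 1 was higher, with a median of -0.24. Bcl11b, a factor that maintains T cell identity, was lower at -0.42 (limma adjusted p = 0.000298) and kept -0.42 when centred on genes of similar level. Fyb, an adaptor gene that myeloid cells also use, was higher by 0.56 (limma adjusted p = 0.00509). Of 13 further NK and cytotoxic genes 8 were lower and 0 higher, led by the granzyme gene Gzmk at -0.39 (limma adjusted p = 0.000976). Of 17 further B and plasma cell genes 5 were lower and 1 was higher. Cd40, a co-stimulatory receptor gene, was lower at -0.42, and Sdc1 was higher by 2.03. Sdc1 marks plasma cells but is also a syndecan of epithelium. Of 13 further mast cell genes 4 were lower and 0 higher, with Mitf, a factor needed for mast cell development, at -0.37. After centring on genes of similar level, the numbers lower in these 4 lists were 3, 2, 1 and 0. The numbers higher were then 2, 0, 1 and 1. Of all named genes 19.6% were lower and 20.8% higher after this centring.

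Signals that sustain or attract these cells were measured in the same tissue. Of 13 such genes 3 were higher and 4 lower, near the 20.3% higher and 34.3% lower of all named genes. Kitl, the ligand of Kit, was 2.18-fold higher (limma adjusted p = 4.79e-05), at 7.14 ± 0.33 (SD, n = 6) in caerulein against 6.02 ± 0.17 (SD, n = 5) in NaCl, while Kit itself did not pass. The alarmin gene Il33 was higher by 0.87 (limma adjusted p = 0.00422), and Il7, the ligand of the Il7r product, by 0.36 (limma adjusted p = 0.0155). Cxcl12, a chemokine gene of stromal cells, was lower at -0.31 (limma adjusted p = 0.0127).

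Leukocyte genes shared with myeloid cells had more higher than lower members. Among 16 pan-leukocyte genes there were 7 higher and 1 lower (median 0.33), against 20.3% higher and 34.3% lower of all named genes. The tetraspanin gene Cd53 was higher by 2.16, and Ptprc, the gene of the CD45 antigen, was higher by 0.52 (limma adjusted p = 0.0166). The lower one was Was, at -0.23. Of 12 myeloid genes 5 were higher and 1 lower, with Cd14 at 2.31 and Mpo at -0.23. Centred on genes of similar level, the pan-leukocyte list had 7 higher and 1 lower, though not the same genes. The myeloid list then had 6 higher and 0 lower, while the 36 markers had 0 higher. Of all named genes 20.8% were higher and 19.6% lower after this centring. Among pan-leukocyte genes Was and Ptpn6 no longer passed after centring, Cd52 was then higher, and Lcp1 was the lower one at -0.43 (limma adjusted p = 0.0440). No test of one list against another was made. Of 9 acinar genes, Ptf1a was higher by 0.55 as deposited, and Bhlha15 and Rbpjl were lower, Bhlha15 at -2.001. Centred on genes of similar level, 8 of these 9 were lower and 0 higher, so the acinar calls depended on the setting.

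**Figure D4:**
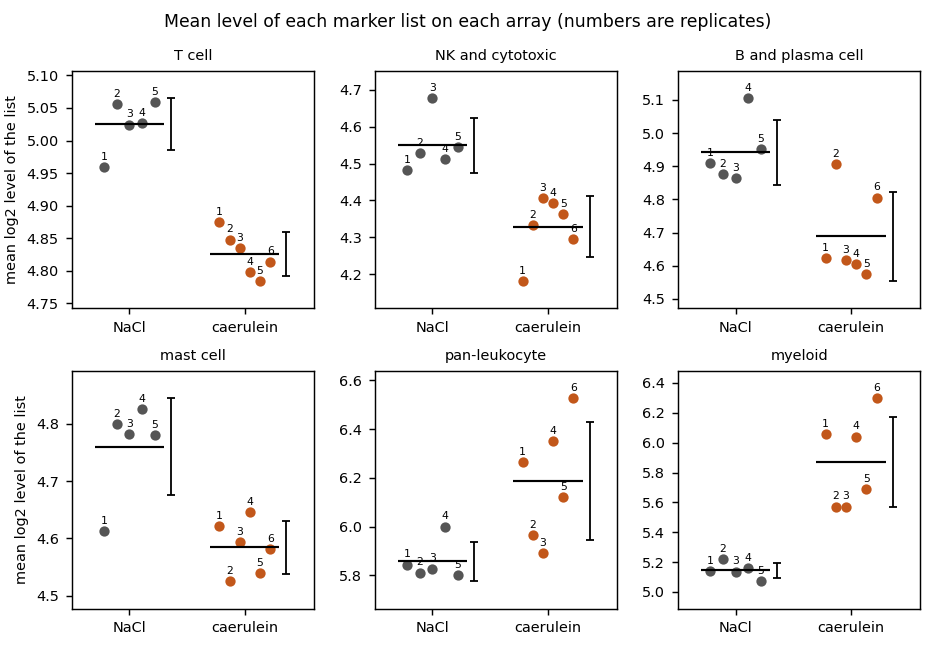
Mean log2 level of each list (4 marker lineages, pan-leukocyte genes and myeloid genes) on each array, with the replicate number above each point, the group mean as a line and the SD as a bar; each panel has its own vertical scale, which does not start at 0. The deposited T cell means and the NK and cytotoxic means are apart by group. The B and plasma cell mean of caerulein replicate 2 lies inside the NaCl range, and the pan-leukocyte and myeloid means of caerulein are spread widely.

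The arrays that stood high or low were not the same in each lineage. The mean over the T cell markers was 4.96 to 5.06 in NaCl and 4.78 to 4.88 in caerulein, with no overlap. The NK and cytotoxic means were also apart, at 4.48 to 4.68 in NaCl and 4.18 to 4.41 in caerulein. Centred on genes of similar level, both lists overlapped between groups. The centred T cell means were 4.89 to 4.97 in NaCl and 4.85 to 4.95 in caerulein. For B and plasma cell markers the deposited mean was 4.87 to 5.11 in NaCl and 4.57 to 4.91 in caerulein. Caerulein replicates 2 and 6 were the highest of their group. Caerulein replicate 2 held the highest value of its group in 8 of 12 B and plasma cell markers, but in 3 of 17 further B and plasma cell genes and 2 of 11 T cell markers. The gene of CXCL13, the chemokine that draws B cells into follicles, showed the same arrays as high. Cxcl13 read 6.28, 6.11, 5.38, 6.48 and 5.39 in NaCl, and 5.80, 7.79, 5.51, 5.32, 5.30 and 9.22 on caerulein replicates 1 to 6. Replicates 2 and 6 were the only caerulein arrays above the NaCl range, and the difference between groups did not pass (0.56, SE 0.65, limma adjusted p = 0.507). Cxcl13 was chosen for display after its values had been seen. For mast cell markers NaCl replicate 1 held the lowest value of its group in 5 of 8 genes. For NK and cytotoxic markers NaCl replicate 3 held the highest in 4 of 5. Caerulein replicate 6 was the highest of its group in 11 of 16 pan-leukocyte and 9 of 12 myeloid genes, but in 2 of 12 B and plasma cell and 0 of 8 mast cell markers.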

How the data were processed

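Total RNA from pancreas was biotin-labelled and measured on Affymetrix arrays, 1 per sample. The deposited values are log2 expression, 1 per probe set and array. The submitters' processing notes name RMA, oligo and limma; versions and a genome build are not stated in the sources. RMA values have no detection calls, so whether a dim marker lies above background is unknown, and low values compress differences. Precision is limited by how few arrays there are.

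Of 35556 probe sets, 21789 had 1 gene symbol in the platform annotation, 1621 several and 12146 none listed. Symbols were checked by Entrez identifier against RefSeq (21698 matched, 0 renamed). Each gene was represented by its brightest probe set on average over the 11 arrays. Groups came from the sample titles. The groups were compared by lmFit and eBayes of limma 3.58.1 (R 4.3.3, two-sided, no covariates), with Benjamini-Hochberg adjustment over all probe sets and a threshold of 0.05. Every adjusted p is from this fit unless another setting is named. The script was checked first on simulated data. For genes of similar level, each array was centred on the median of each of 10 classes of mean level. The classes and their medians were taken over all 35556 probe sets, including those without a single gene symbol. Other alternatives were a trended robust prior, array weights, second quantile and cyclic loess normalisation, equal 75th percentiles, an equal mean of 11 reference genes, leaving out the dimmer 50 percent, a replicate block, leaving out each array, and an unadjusted p.

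The members and gene lists were chosen with earlier results of these data known. All measured members are named. For some members the NaCl values are given per array and the caerulein values as range and median. These are the 2 members of a lineage with the smallest p, the one with the largest p and Cd3e, Cd8a, Cd79a, Cd79b, Nkg7, Cpa3, Tpsb2 and Kit. From each other list the gene with the smallest p in each direction past the threshold is named. Values of Cela1, Rbpjl, Ptpn6, Cd52, Lcp1, Il33, Ptprc, Il7, Tpsab1, Jchain and Cxcl13 given beyond this rule were chosen after they had been seen.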

Additional observations from a re-analysis of the deposited data

Results flagged for a closer look

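In 80 checks of the 36 markers and the 4 lineage means within each group, 6 had an end value set apart from the others by more than Dixon's 95% limit, and chance flags about 1 in 20 such groups. Prf1 was low on caerulein replicate 1, at 5.23 against 5.74 to 5.98 on the other caerulein arrays. Blk was low on caerulein replicate 4, at 4.68 against 5.04 to 5.24. Mzb1 was high on NaCl replicate 3, at 5.46 against 4.84 to 4.94. Ms4a2 was low on NaCl replicate 1, at 2.97 against 3.26 to 3.35, and high on caerulein replicate 4, at 3.38 against 3.15 to 3.19. The mean of the mast cell markers was low on NaCl replicate 1, at 4.61 against 4.78 to 4.83.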

How the results depend on the processing

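No marker was called higher under any alternative run. The median difference of all named genes was -0.13 as deposited. Quantile normalising again gave -0.06, cyclic loess -0.02 and centring within level classes -0.03. Setting the 75th percentiles equal gave -0.19, and setting the mean of 11 reference genes equal gave -0.95, and 7 of those genes were themselves higher in caerulein. Lower T cell, NK and cytotoxic, B and plasma cell, and mast cell markers then numbered, in that order, 2, 0, 1 and 1 after the second quantile normalisation, 1, 0, 0 and 0 after cyclic loess, and 1, 0, 0 and 0 when centred within level classes. Equal 75th percentiles gave 7, 4, 8 and 5, and the equal reference mean 11, 5, 12 and 8. These counts are to be read against all 19938 named genes, of which 6839 were lower as deposited. After the second quantile normalisation 4671 of them were lower, after cyclic loess 3636 and when centred within level classes 3916. With equal 75th percentiles 9155 were lower, and with the equal reference mean 17497. Without the dimmer 50 percent of probe sets, which left 10 markers in the fit, the lower markers numbered 3, 1, 2 and 2. A trended robust prior, array weights and an unadjusted p left every count within 1.5 times. Another probe set per gene could not be tried, since each marker had 1.

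Leaving out 1 array gave 4 to 7 lower T cell, 3 to 4 NK and cytotoxic, 3 to 5 B and plasma cell and 2 to 3 mast cell markers. Of the 18 lower markers, 10 passed in each of these 11 fits.

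Differences that changed sign had not passed as deposited. With equal 75th percentiles Cd3d was -0.019, Cd2 -0.047, Ncr1 -0.045 and Fcer2a -0.033, and with the equal reference mean they were -0.78, -0.80, -0.80 and -0.79. After the second quantile normalisation, cyclic loess and centring within level classes, in that order, Il7r was 0.095, 0.13 and 0.11, Lat 0.023, 0.055 and 0.042, Cr2 0.018, 0.037 and 0.022, Cd22 0.0081, 0.048 and 0.044, and Cma1 0.0015, 0.039 and 0.032. Ms4a2 was 0.010 and 0.023 under the first of these and cyclic loess, and Cd72 0.014 under cyclic loess. Leaving out 1 array, Cd3d ranged from -0.026 to 0.11, Cd2 from -0.082 to 0.059, Ncr1 from -0.0086 to 0.045, Fcer2a from -0.015 to 0.063 and Kit from -0.076 to 0.020. The cause of these changes was not tested.

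Samples with the same replicate number deviated together only weakly, with correlations of -0.05 to 0.06, so the numbers were not taken as a pairing. With the replicate number as a block, lower markers numbered 4 T cell, 2 NK and cytotoxic, 4 B and plasma cell and 2 mast cell.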
